A study of Mus musculus with 27 samples.

Results

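The genes described here are 10 members of TGF-beta, activin and BMP signalling, 6 of them ligand genes (Tgfb1, Tgfb2, Tgfb3, Inhba, Inhbb and Bmp4), 1 a receptor gene (Bmpr1a), and 3 inhibitor genes (Smad6, Smad7 and Fst). They were followed in 3T3-L1 adipocytes, fat cells differentiated from a mouse fibroblast line, over 48 h with rosiglitazone, a drug that activates the nuclear receptor PPARgamma. Each member was read from the probe set annotated to its symbol alone, and 9 of the 10 members were found in this way among 18781 genes. The only probe set for Fst, which encodes the secreted activin antagonist follistatin, was also annotated to Thrap3, so no value of Fst was used. The study measured RNA on 27 Affymetrix Mouse Gene 1.1 ST arrays, 3 for each of 9 groups: untreated cells at time 0, and cells given 1 µM rosiglitazone dissolved in DMSO for 30 min, 1 h, 2 h, 6 h, 12 h, 24 h, 36 h or 48 h. All groups are cells of 1 line differentiated in culture, and none of the groups used here was kept without the drug past time 0. No group is labelled as given DMSO alone. Drug, DMSO and time in culture therefore cannot be told apart. Whether the 3 arrays of a group came from separate cultures is not in the labels, and the p-values therefore take in only array-to-array spread, possibly technical. Since each array reads RNA of a whole culture, fewer cells that express a gene and less RNA per cell cannot be told apart.

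Ligands of this family bind paired type I and type II receptor kinases at the cell surface, which phosphorylate receptor SMAD proteins. TGF-beta and activin act mainly through SMAD2 and SMAD3, BMPs mainly through SMAD1, SMAD5 and SMAD9, and both arms share SMAD4. Smad6 and Smad7 are inhibitory SMADs that block receptors or SMAD complexes and are themselves targets of the pathway. In fat tissue, TGF-beta and activin are known for holding back the differentiation of preadipocytes, while BMP4 favours commitment to the fat lineage.

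Values are log2 intensities, so a difference of 1 is a doubling, and they compare arrays for the same probe set, never 1 gene with another. A gene is called higher or lower where its Benjamini-Hochberg adjusted p in limma, taken over all 18781 genes, was below 0.05. Array medians lay between 4.02 and 4.13, and the median standard error (SE) of a change was 0.088. Of 10 adipocyte markers, 10 had a group mean of 4 or more in untreated cells, with Adipoq at 11.91. Their summed linear intensity was 27876 to 28801 in untreated cells, 29013 to 29203 at 24 h and 25626 to 27870 at 48 h, when 0 of them were higher and 3 lower. Of 5 PPARgamma target genes used as a check (Angptl4, Pdk4, Pck1, Cidea and Fabp4), 1 was higher at 30 min, 3 at 1 h, 2 h and 12 h, 4 at 6 h and 48 h, and 5 at 24 h and 36 h, and Cidea was not called before 24 h. The sum over 9 preadipocyte and fibroblast markers was 2637 to 2731 in untreated cells and 1894 to 2038 at 48 h, while Cd34, Dpp4 and Pi16 stayed below a log2 mean of 4 in all groups. At 48 h, 4 of the 9 were lower and 5 not called. This sum leans on Dlk1, which had the highest untreated mean of them (10.22) and fell by 0.74 at 48 h. The same sum over 8 macrophage markers was 122 to 132 and then 107 to 115, and the means of all 6 endothelial markers were below 4.

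Over the time course, 6 of the 9 members differed between groups by limma's F-test, namely Tgfb1, Tgfb2, Tgfb3, Inhbb, Smad6 and Smad7, against a background of 40.5% of all genes. The TGF-beta ligands ended lower than they started, Smad6 ended higher, and Smad7 and Inhbb were lower early and no longer called at 48 h. Inhba, Bmp4 and Bmpr1a were called at no time against untreated cells.

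At 30 min limma called no member, and 0 of the 9 had an unadjusted p below 0.05 (background 0.0479% called in either direction). At 1 h only Smad6 was called, as higher (background 0.474% higher and 0.516% lower). At 2 h Smad6 was higher and Inhbb and Smad7 were lower (background 3.04% higher and 2.87% lower). At 6 h no member was called higher, though Tgfb2 had an unadjusted p of 0.0122, and Tgfb1, Inhbb and Smad7 were lower (8.39% higher and 8.18% lower). With each array centred on its median, the 6 h tally turned to 2 higher (Tgfb2 and Bmpr1a) and 1 lower (Smad7). Centring also moved the median change over all genes at 6 h from -0.008 to 0.078. At 12 h Tgfb2 was higher and Tgfb1 and Smad7 were lower (9.48% higher and 9.38% lower). From 24 h on Smad6 was the 1 member called higher. The 3 lower members were Tgfb1, Tgfb2 and Tgfb3 at 24 h (10.1% higher and 10.5% lower), Tgfb1, Tgfb2 and Smad7 at 36 h (10.9% higher and 10.5% lower) and Tgfb1, Tgfb2 and Tgfb3 again at 48 h (12.6% higher and 11.4% lower). With 9 genes, a share of 1 in 9 is 11.1% and of 3 in 9 is 33.3%, so the count of higher members was near or under the background from 6 h on. The median change over the 9 members was -0.21 at 6 h, -0.20 at 24 h and -0.07 at 48 h, beside medians over all genes that stayed between -0.013 and 0.013.

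**Figure D1:**
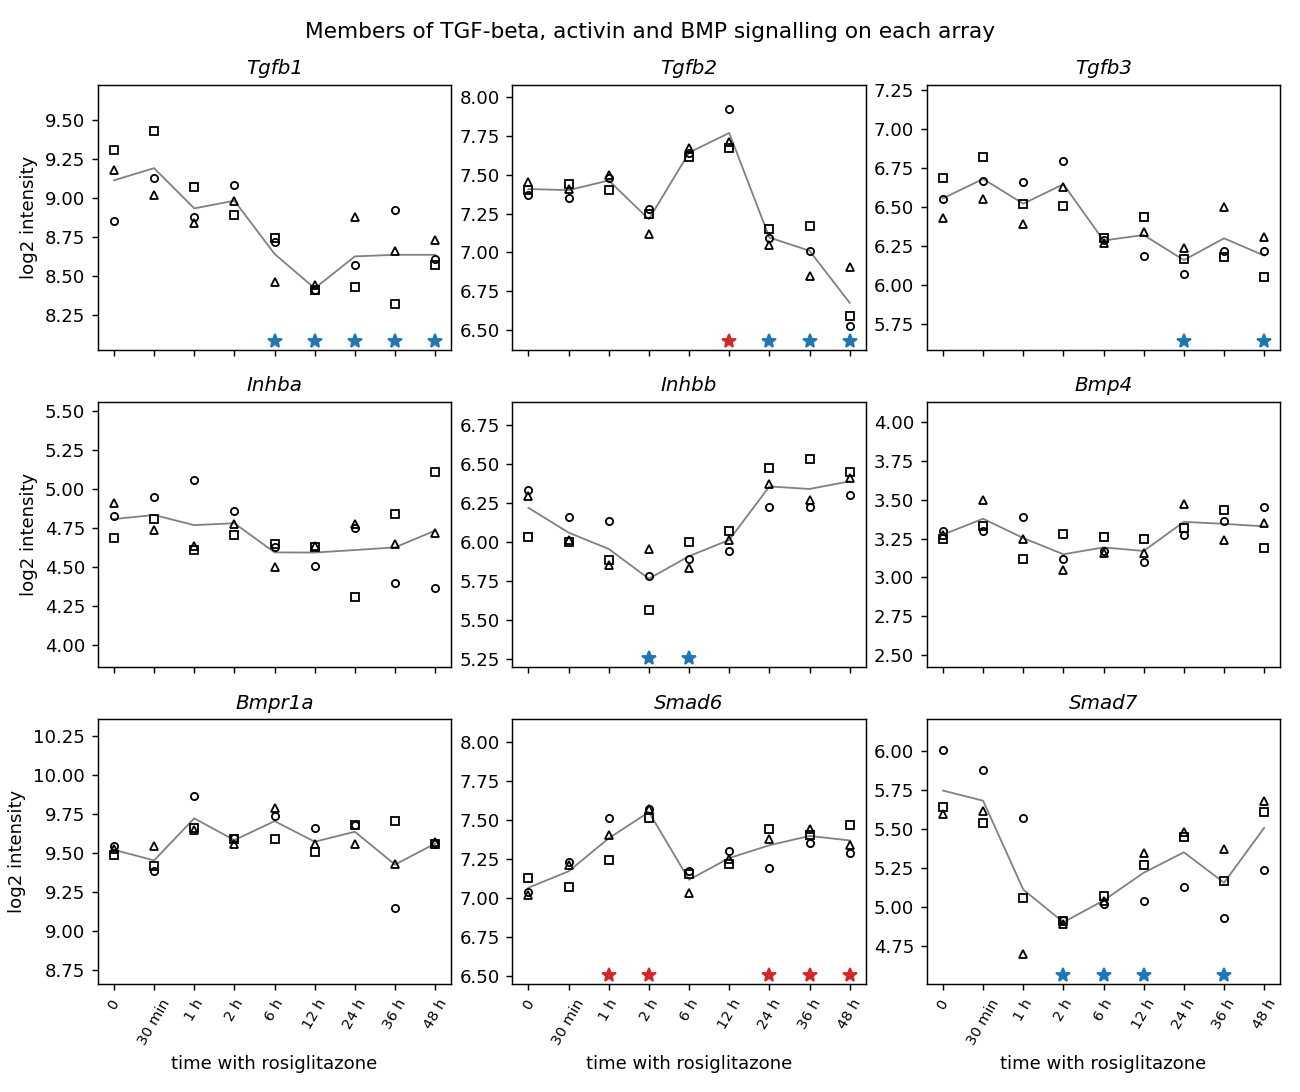
Log2 intensity (vertical axis) of the 9 measured members on each of the 27 arrays by time with rosiglitazone (horizontal axis, not to scale); circles, squares and triangles are replicates 1, 2 and 3, the grey line joins group means, and red or blue stars mark times called higher or lower than untreated. All panels span the same log2 range, and Tgfb1 shows 5 blue stars from 6 h on while Smad6 shows 5 red ones.

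Tgfb1 encodes TGF-beta1, a ligand secreted in latent form. Its log2 intensity was 8.85, 9.31 and 9.18 on the untreated arrays, 8.72, 8.74 and 8.46 at 6 h, 8.41, 8.41 and 8.44 at 12 h, and 8.61, 8.57 and 8.73 at 48 h. The 12 h group had the lowest mean, and the 6 h, 12 h and 48 h arrays all lay below every untreated array. At 24 h (8.57, 8.43 and 8.88) and 36 h (8.92, 8.32 and 8.66) the highest array overlapped the lowest untreated one. The fall was largest at 12 h, by 0.69 ± 0.13 (log2, SE), or 1.62-fold (adjusted p = 4.87e-04). The changes of -0.47 at 6 h (adjusted p = 0.0155), -0.49 at 24 h (0.00966) and -0.48 at both 36 h (0.0110) and 48 h (0.0101) also passed, each with an SE of 0.13. The call at 12 h held whichever array was left out. Without untreated replicate 2 the other calls ended, with changes of -0.37 (6 h), -0.39 (24 h), -0.38 (36 h) and -0.38 (48 h) and adjusted p-values of 0.103, 0.0746, 0.0801 and 0.0748. The 6 h call also ended without untreated replicate 3 (-0.44, adjusted p = 0.0595) or 6 h replicate 3 (-0.38, 0.0983), the 24 h call without 24 h replicate 2 (-0.39, 0.0740), and the 36 h call without 36 h replicate 2 (-0.32, 0.102) or with only those groups in the fit (0.0751). Centring each array on its median also ended the 6 h call (-0.39, 0.0522).

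Tgfb2, which encodes the ligand TGF-beta2, had the widest range of group means among the members, 1.09 log2 units, and went in both directions. On the untreated arrays it read 7.37, 7.40 and 7.45. It read 7.64, 7.61 and 7.67 at 6 h and 7.92, 7.67 and 7.71 at 12 h, all above the untreated arrays. It then read 7.09, 7.15 and 7.05 at 24 h, 7.01, 7.17 and 6.85 at 36 h, and 6.53, 6.59 and 6.91 at 48 h, all below them. Tgfb2 rose by 0.36 ± 0.086 at 12 h (1.28-fold, adjusted p = 0.00370), while the 6 h difference of 0.23 did not pass (0.0665) except under alternatives such as centring each array on its median (0.32, 0.00773). It fell by 0.31 at 24 h (adjusted p = 0.00997), by 0.40 at 36 h (0.00125) and by 0.73 at 48 h (4.59e-07), each with an SE of 0.086, the last being 1.66-fold lower. These calls against untreated cells held without any 1 array.

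Later times were also compared with each other. At 2 h Tgfb2 read 7.28, 7.25 and 7.12, below every untreated array, though the difference of -0.19 did not pass (adjusted p = 0.238). Between 2 h and 6 h, Tgfb2 rose by 0.43 ± 0.086 (adjusted p = 0.00179), where 4.27% of genes were higher and 4.89% lower. This rise thus started from a 2 h level below that of untreated cells. Between 6 h and 24 h it fell by 0.55 (adjusted p = 1.05e-04; background 5.51% higher and 6.02% lower), and between 24 h and 48 h by a further 0.42 (adjusted p = 0.0120; background 0.713% higher and 0.745% lower). Tgfb2 was the only member called between 24 h and 48 h, and that call ended without 24 h replicate 1 (-0.42, adjusted p = 0.0520) or 2 (-0.39, 0.0599), without 48 h replicate 1 (-0.35, 0.0547) or 2 (-0.37, 0.0584), and with only those groups in the fit (0.145). Between 2 h and 48 h Tgfb2 fell by 0.54 (adjusted p = 3.58e-05), where 12.2% of genes were higher and 11.5% lower. In order of group means Tgfb2 ran from 48 h through 36 h, 24 h, 2 h, 30 min, untreated, 1 h and 6 h to 12 h. Of the 8 neighbouring pairs in that order, the arrays of 6 overlapped, with gaps between 2 h and 30 min and between 1 h and 6 h.

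The promoters of Tgfb1 and Tgfb2 are shown because these ligands of 1 subfamily took different courses. The bases printed run from 250 before to 10 after a RefSeq start site (assembly GRCm38.p6). They lie at chr7:25686752-25687011 on the plus strand for Tgfb1 and chr1:186705980-186706239 on the minus strand for Tgfb2. The gene record of Tgfb2 reaches 186709697, upstream of this window, and sequence there was not examined. Capitals mark matches, on either strand, to GGGCGG (the GC box), CAGAC (the SMAD-binding element), TATAAA (the TATA box), GTCTAGAC (the palindromic SMAD element), GGCGCC (a GC-rich SMAD-binding sequence) or to a direct repeat of AGGTCA with 1 base between the copies (the element bound by PPARgamma and RXR).
Tgfb1: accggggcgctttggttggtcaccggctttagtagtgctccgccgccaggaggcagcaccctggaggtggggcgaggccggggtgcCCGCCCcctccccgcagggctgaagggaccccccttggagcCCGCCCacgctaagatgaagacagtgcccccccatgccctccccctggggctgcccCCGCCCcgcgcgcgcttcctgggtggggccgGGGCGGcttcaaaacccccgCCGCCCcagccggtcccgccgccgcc
Tgfb2: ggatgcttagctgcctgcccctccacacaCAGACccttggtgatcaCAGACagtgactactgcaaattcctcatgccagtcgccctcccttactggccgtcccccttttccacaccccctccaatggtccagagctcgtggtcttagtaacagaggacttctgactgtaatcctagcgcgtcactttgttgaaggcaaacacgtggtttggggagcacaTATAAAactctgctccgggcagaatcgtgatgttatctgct
In the window of 300 bases, which reaches 50 bases past the start, Tgfb1 had 77.0% G and C and 6 matches to GGGCGG, with none to TATAAA or CAGAC. Tgfb2 had 54.3% G and C, 2 matches to CAGAC and 1 to TATAAA, from -31 to -26 of its start. Among 32851 promoter windows of the same length, whose median G and C content was 52.7%, 35.7% held GGGCGG, 49.6% CAGAC and 13.6% TATAAA. A match describes the letters only.

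Tgfb3, encoding TGF-beta3, read 6.55, 6.69 and 6.43 on the untreated arrays, 6.07, 6.17 and 6.24 at 24 h and 6.22, 6.05 and 6.31 at 48 h. The arrays of both late times lay below all untreated ones. Tgfb3 fell by 0.40 ± 0.099 at 24 h (adjusted p = 0.00426) and by 0.37 ± 0.099 at 48 h (0.00697). The differences at 6 h (-0.27, adjusted p = 0.0624) and 36 h (-0.26, 0.0663) did not pass. From 2 h to 6 h Tgfb3 fell by 0.36 (adjusted p = 0.0193), and from 2 h to 48 h by 0.46 (9.76e-04). The 24 h call held without any 1 array, whereas the 48 h call ended without untreated replicate 2 (-0.30, 0.0528) or 48 h replicate 2 (-0.30, 0.0544). The fall from 2 h to 6 h ended without 2 h replicate 1 (-0.29, 0.133), 6 h replicate 1 (-0.36, 0.0524) or 6 h replicate 3 (-0.35, 0.0642).

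Inhbb encodes the beta B subunit that forms activin B, and it is abundantly made by fat cells. Its untreated arrays read 6.33, 6.03 and 6.29, and its 2 h arrays 5.78, 5.56 and 5.95, all lower. At 6 h it read 5.89, 6.00 and 5.83, still below every untreated array. At 48 h it read 6.30, 6.45 and 6.41, which overlapped the untreated arrays. Inhbb fell by 0.45 ± 0.10 at 2 h (1.37-fold, adjusted p = 0.00595) and by 0.31 ± 0.10 at 6 h (0.0370). From 6 h to 24 h it rose by 0.45 (adjusted p = 0.00401), and from 2 h to 48 h by 0.63 (1.54-fold, 4.33e-05). Against untreated cells the 48 h difference of 0.17 did not pass (adjusted p = 0.258). The 2 h call ended without 2 h replicate 2 (-0.35, 0.0699). The 6 h call ended without untreated replicate 1 (-0.25, 0.162) or 3 (-0.28, 0.129), without 6 h replicate 1 (-0.30, 0.0924) or 3 (-0.27, 0.135), with a replicate block (0.0571), after centring each array on its median (-0.22, 0.0977) and after a further quantile step (-0.28, 0.0549).

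Inhba, which encodes the beta A subunit of activin A, read 4.83, 4.69 and 4.91 untreated and 4.51, 4.63 and 4.64 at 12 h. Its farthest difference from untreated was -0.21 at 12 h, with a 95% interval from -0.52 to 0.09 (adjusted p = 0.362). The replicates at 48 h spread from 4.37 to 5.11, wider than the 0.24 log2 units between the highest and lowest group means. Bmp4, the BMP ligand of the list, lay between 3.05 and 3.50 on all 27 arrays, below the median gene mean of 4.76. Its farthest difference was -0.13 at 2 h, with an interval from -0.30 to 0.04 (adjusted p = 0.495). Bmpr1a encodes the type I receptor through which BMP4 signals. It read 9.55, 9.49 and 9.53 untreated and 9.87, 9.66 and 9.65 at 1 h, its highest group, where the difference of 0.20 had an interval from 0.01 to 0.39 and an adjusted p of 0.471. At 6 h Bmpr1a differed by 0.18 (adjusted p = 0.201), and after centring each array on its median by 0.27, which passed (0.0304).

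**Figure D2:**
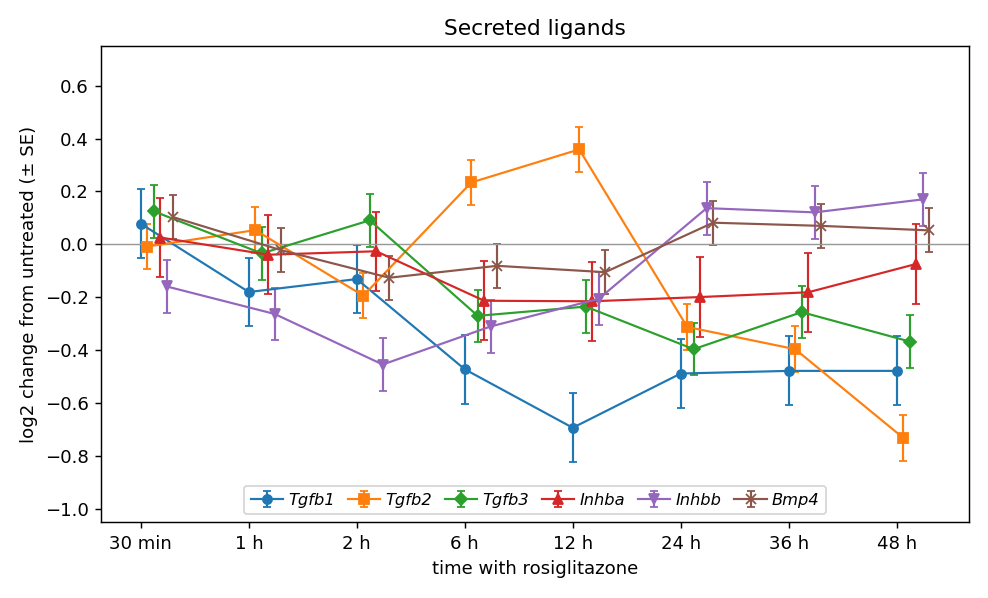
Log2 change from untreated (vertical axis) of the 6 ligand genes by time with rosiglitazone (horizontal axis), with bars of ± 1 SE from limma and n = 3 arrays a group. Tgfb2 is at 0.36 at 12 h and -0.73 at 48 h, and Inhbb is lowest at 2 h, at -0.45.

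Smad6 was the only member called higher at 1 h, 2 h, 24 h, 36 h and 48 h. The product is an inhibitory SMAD that mainly restrains BMP signalling. The untreated arrays read 7.04, 7.13 and 7.02, the 1 h arrays 7.51, 7.24 and 7.40, and the 2 h arrays 7.57, 7.51 and 7.57. At 6 h Smad6 read 7.17, 7.15 and 7.03, overlapping untreated, and at 48 h 7.29, 7.47 and 7.34, above all untreated arrays. Smad6 rose by 0.32 ± 0.073 at 1 h (adjusted p = 0.0291) and by 0.49 ± 0.073 at 2 h (1.40-fold, 7.40e-05), then fell by 0.43 between 2 h and 6 h (3.05e-04). Against untreated cells it was higher again by 0.27 at 24 h (adjusted p = 0.00801), 0.33 at 36 h (0.00141) and 0.30 at 48 h (0.00300). The step from 6 h to 24 h was 0.22 and narrowly did not pass (0.0508), and at 12 h the difference of 0.19 did not pass (0.0739) but did after centring (0.25, 0.0106). The 2 h, 36 h and 48 h calls held without any 1 array. The 1 h call ended without untreated replicate 1 (0.30, adjusted p = 0.121) or 3 (0.30, 0.148), without 1 h replicate 1 (0.25, 0.203) or 3 (0.31, 0.135), and with a replicate block (0.0657) or only those groups in the fit (0.146). The 24 h call ended without 24 h replicate 2 (0.22, 0.0640).

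The Smad6 promoter is shown because it holds a palindromic SMAD element at the RefSeq start site used here. It lies at chr9:64022050-64022309 on the minus strand (GRCm38.p6), printed from 250 bases before to 10 after the start, with the same motifs in capitals.
Smad6: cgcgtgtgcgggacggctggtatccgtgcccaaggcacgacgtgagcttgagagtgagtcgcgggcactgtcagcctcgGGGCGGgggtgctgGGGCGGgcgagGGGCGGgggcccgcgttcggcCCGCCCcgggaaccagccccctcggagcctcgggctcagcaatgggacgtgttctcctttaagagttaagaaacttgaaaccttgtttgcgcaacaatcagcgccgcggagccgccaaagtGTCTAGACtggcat
The match to GTCTAGAC runs across the start site, and 4 matches to GGGCGG lie upstream. Of the 32851 promoter windows, 0.213% held GTCTAGAC. Of the 7 members with a RefSeq window (Bmp4, Bmpr1a, Inhba, Inhbb, Smad6, Tgfb1 and Tgfb2), Smad6 was the 1 with this match. The direct repeat of AGGTCA was in none of these 7 windows and in 0.0396% of all windows, and GGCGCC was in the Bmpr1a window and in 11.9% of all.

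Smad7, the inhibitory SMAD that blocks TGF-beta, activin and BMP receptors alike, was lower at 2 h and 36 h, when Smad6 was higher. At 6 h and 12 h Smad7 was lower and Smad6 was not called. Smad7 read 6.01, 5.64 and 5.60 on the untreated arrays, 5.57, 5.06 and 4.70 at 1 h, and 4.92, 4.91 and 4.89 at 2 h, the lowest group. At 6 h it read 5.02, 5.07 and 5.04, and at 48 h 5.24, 5.61 and 5.68, which overlapped untreated. Replicate 1 was the highest array in the untreated, 30 min and 1 h groups and the lowest from 12 h on. Smad7 fell by 0.85 ± 0.16 at 2 h (1.80-fold, adjusted p = 0.00116), by 0.71 at 6 h (0.00275), by 0.53 at 12 h (0.0215) and by 0.59 at 36 h (0.00869). The differences at 1 h (-0.64, 0.0560), 24 h (-0.40, 0.0875) and 48 h (-0.24) did not pass, and from 2 h to 48 h Smad7 rose by 0.61 (0.00652). The 2 h and 6 h calls held without any 1 array. The 12 h call ended without untreated replicate 1 (-0.40, 0.136) or 12 h replicate 1 (-0.44, 0.111), and the 36 h call without untreated replicate 1 (-0.46, 0.0699) or 36 h replicate 1 (-0.48, 0.0578), while the 1 h difference passed without 1 h replicate 1 (-0.86, 0.00330).

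**Figure D3:**
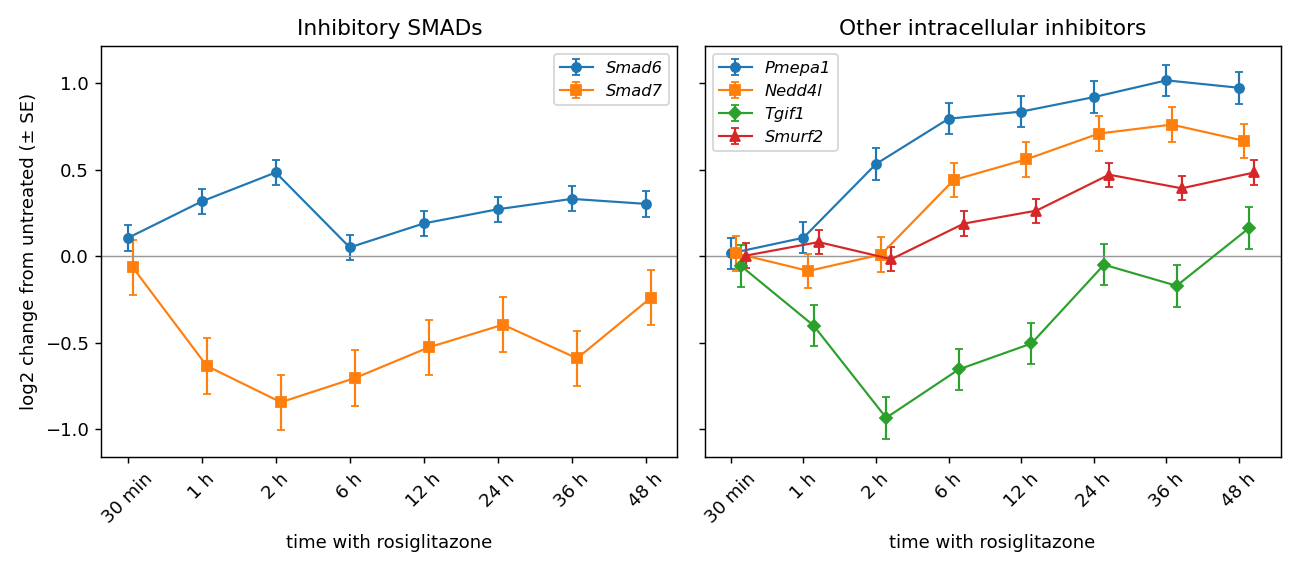
Log2 change from untreated (vertical axis) by time with rosiglitazone (horizontal axis) of Smad6 and Smad7 (left) and of Pmepa1, Nedd4l, Tgif1 and Smurf2 (right), with bars of ± 1 SE from limma and n = 3 arrays a group. At 2 h Smad6 is at 0.49 and Smad7 at -0.85, and at 48 h Pmepa1 is at 0.98.

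Of 100 further pathway genes listed by role, 92 were measured. By the F-test 50 of them differed over the course, against a background of 40.5% of all genes. Against untreated cells, 4 were higher and 9 lower at 2 h (background 3.04% and 2.87%), and 4 and 20 at 6 h (8.39% and 8.18%). The counts were 5 and 20 at 24 h (10.1% and 10.5%), and 8 and 26 at 48 h (12.6% and 11.4%). Their median change at 48 h was -0.08. The named genes are those with the smallest F-test p in each role, up to 4 a role.

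Among 11 intracellular and membrane inhibitors, 3 were higher and 2 lower at 6 h (background 8.39% and 8.18%). At 12 h 4 were higher and 3 lower (Tgif1, Ski and Tob1; background 9.48% and 9.38%). Then 5 were higher and none lower at 24 h (10.1% and 10.5%). At 48 h 6 were higher and 1 lower (12.6% and 11.4%), with a median of 0.24. Pmepa1, which encodes a membrane protein that holds receptor SMADs away from the receptor, rose by 0.53 ± 0.091 at 2 h (adjusted p = 3.24e-04), by 0.92 at 24 h (3.63e-08) and by 0.98 at 48 h (1.12e-08). Nedd4l, a ubiquitin ligase for activated SMAD2 and SMAD3, rose by 0.44 ± 0.10 at 6 h (0.00357) and 0.71 at 24 h (1.21e-05). Smurf2, another ubiquitin ligase of SMADs and receptors, rose by 0.47 ± 0.070 at 24 h (1.55e-05) and 0.49 at 48 h (9.08e-06). Ski and Tob1 fall outside the naming rule and are named for that count. Tgif1, a nuclear corepressor of SMADs, fell by 0.94 ± 0.12 at 2 h (5.58e-06) and by 0.66 at 6 h (2.22e-04), then rose by 1.10 between 2 h and 48 h (8.25e-08).

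Of 14 receptors and coreceptors, none was higher against untreated cells. At 2 h 3 were lower (background 2.87%) and at 48 h 5 (11.4%). Acvr1, a type I receptor for BMPs, fell by 0.41 ± 0.067 at 24 h (adjusted p = 4.49e-05) and by 0.46 at 48 h (9.73e-06). Acvrl1, a type I receptor best known from endothelial cells, fell by 0.51 ± 0.099 at 6 h (6.57e-04), and Tgfbr3, the coreceptor betaglycan, by 0.42 ± 0.071 at 48 h (5.82e-05). Acvr1b, the activin type I receptor, was lower at 2 h alone. It read 7.72, 7.74 and 7.73 untreated, 7.26, 7.19 and 7.13 at 2 h, and 7.73, 7.78 and 7.72 at 6 h. It thus fell by 0.54 ± 0.077 (3.80e-05) and rose by 0.55 from 2 h to 6 h (3.35e-05).

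Of the 6 receptor SMADs and SMAD4, Smad1 and Smad3 were lower at 2 h (background 2.87%) and 6 h (8.18%). Smad2, Smad4, Smad5 and Smad9 were called at no time against untreated. Smad1, of the BMP arm, fell by 0.47 ± 0.11 at 6 h (adjusted p = 0.00378). Smad3, of the TGF-beta and activin arm, fell by 0.28 ± 0.074 at 2 h (0.0195), a call that ended without untreated replicate 2 (-0.27, 0.0745) or 3 (-0.27, 0.0733), without 2 h replicate 3 (-0.25, 0.113) and after centring (-0.26, 0.0504). Of 21 other ligands, 17 were called at no time against untreated. Gdf5, a BMP-type ligand, rose by 0.61 ± 0.12 at 2 h (0.00127), and Amh, encoding anti-Müllerian hormone, fell by 0.43 ± 0.089 at 6 h (0.00115).

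Among 14 secreted antagonists and latency proteins, 3 were lower at 24 h (background 10.5%). At 48 h 1 was higher and 4 lower (12.6% and 11.4%), with a median of -0.19. Ltbp1, which tethers latent TGF-beta to the matrix, fell by 0.52 ± 0.084 at 12 h (adjusted p = 5.84e-05) and by 0.75 at 48 h (2.35e-07). Ltbp4, of the same family, fell by 0.48 ± 0.10 at 24 h (9.54e-04). Thbs1, a matrix protein that activates latent TGF-beta, rose by 0.57 ± 0.12 at 1 h (0.0146), a call that ended without untreated replicate 1 (0.48, 0.123) or 1 h replicate 1 (0.54, 0.0822) or 2 (0.56, 0.0634), and fell by 0.61 at 12 h (6.31e-04).

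Of 15 TGF-beta responsive genes none was higher at any time against untreated cells. At 12 h 11 were lower (background 9.38%), at 24 h 10 (10.5%, median -0.39) and at 48 h 10 (11.4%, median -0.27). There were 5 not called at 24 h and 5 at 48 h. Genes listed under another role are not among the 15. Of those, Pmepa1 and Smad6 were higher at 24 h and 48 h, and Smad7 was not called then. Acta2, smooth muscle actin, fell by 1.53 ± 0.12 at 12 h and by 2.59 at 24 h (adjusted p = 2.20e-13). Tagln, an actin-binding protein, fell by 1.03 ± 0.14 at 24 h (3.46e-06), Fn1, fibronectin, by 0.60 ± 0.078 at 36 h (2.24e-06), and Col1a2, a collagen I chain, by 0.43 ± 0.060 at 48 h (4.45e-06). Several of these are also genes of fibroblasts, and 5 of 9 preadipocyte and fibroblast markers were lower at 24 h (median -0.23) and 4 at 48 h (median -0.17). The part of such cells in these falls was not tested.

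Of 11 BMP responsive genes, 1 was higher at 30 min (background 0.0479%) and at 1 h (0.474%). At 24 h 4 were lower (10.5%) and at 48 h 5 (11.4%), so most were not called at these times. The early one was Id3, an inhibitor of DNA binding, which rose by 0.85 ± 0.12 at 30 min (adjusted p = 8.41e-04) and by 1.26 at 1 h (2.43e-07), and fell by 0.62 at 24 h (2.97e-04). Its relative Id1 fell by 0.46 ± 0.076 at 6 h (9.16e-05) and 0.89 at 24 h (3.22e-09). Id2, of the same family, fell by 1.55 ± 0.27 at 6 h (1.73e-04) and 1.37 at 48 h (3.73e-04). Hey1, the remaining gene named for this role, fell by 0.47 ± 0.12 at 6 h (0.00942) and took another course later. It rose by 0.59 from 6 h to 24 h (0.00182), and its difference of 0.24 from untreated at 48 h did not pass (0.173).

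**Figure D4:**
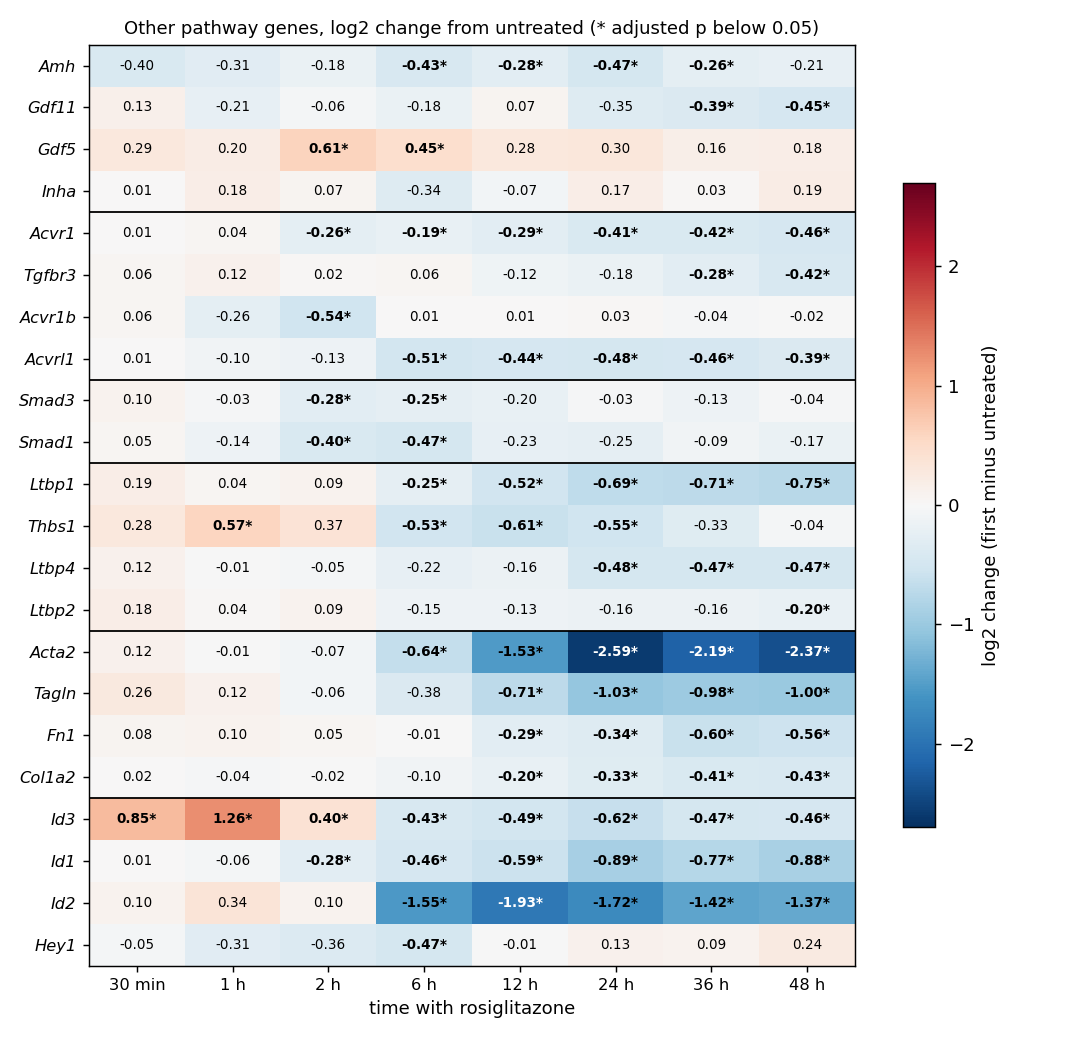
Log2 change from untreated of the 22 named pathway genes that are no members (rows, lines between roles) at 8 times with rosiglitazone (columns), each cell printing its change and an asterisk where limma's adjusted p was below 0.05; the 4 intracellular inhibitors are plotted with Smad6 and Smad7. Acta2 reaches -2.59 at 24 h and Id3 1.26 at 1 h.

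The members' courses were also set against each other over the 9 group means, as a description, since all genes share the same arrays. Among the members called by the F-test, Tgfb1 ran with Tgfb3 (Pearson r = 0.871). Tgfb2 and Tgfb3 ran against Inhbb (-0.655 and -0.602), and Smad6 against Smad7 (-0.599). For the 3 members with the largest F, genes of like course were sought among the other genes called by the F-test with group means spanning at least 0.5. Closest to Tgfb2 were Nnmt, a methyltransferase of nicotinamide (r = 0.974), Plgrkt (0.965), Zfp462 (0.96) and Cth (0.948). Closest to Inhbb were Ets2 (0.991), Crebl2 (0.967), Jun (0.964) and Mir183 (0.951), and closest to Smad6 were 4930506C21Rik (0.906), Cebpb (0.882), Aoc2 (0.848) and Rnpc3 (0.823). These are the 4 highest of 3101 candidates for Tgfb2 and Inhbb and of 3102 for Smad6, over only 9 means. Group means of Mir183 (2.84 to 3.90) and 4930506C21Rik (3.85 to 4.41) lay below the median gene mean of 4.76.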

How the data were processed

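RNA of 27 arrays was read with Affymetrix Mouse Gene 1.1 ST. The deposited values are log2 intensities, between 1.67 and 13.19. The submitters' processing notes name RMA and Partek, with no versions; the array's genome build is not given in the sources used here. Of 28815 probe sets, 21153 carry 1 gene symbol, 1867 several and 5795 none in GEO's platform annotation. Probe sets with 1 symbol were kept, and the highest mean over all arrays represented a gene with several, leaving 18781 genes. A linear model of 9 group means was fitted to all 27 arrays with limma 3.58.1 in R 4.3.3 (lmFit, eBayes). Benjamini-Hochberg adjustment and a call at 0.05 followed, and 4 contrasts between later times used the same fit. The model held no term for the replicate number. Its p-values would be somewhat too small if a replicate effect was taken out of the values before deposit, which was not tested. The script was tested on simulated data. Other filters, scalings, a replicate block, other fits and leaving out each array were tried as alternatives. Promoters are RefSeq's; TATAAA and GGGCGG were added after the sequences were seen. The members and gene lists were chosen with earlier results of these data known. The number of arrays limits precision, and no array pair held identical values.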

Additional observations from a re-analysis of the deposited data

How the results depend on the processing

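No value of a member against untreated cells or between later times changed sign among those called. Leaving out arrays aside, 703 of the members' values under an alternative stayed on their side of the threshold, 21 passed it newly and 8 no longer did. Without 1 array these numbers were 611, 6 and 31. The sign of values called in neither fit was not counted. Averaging a gene's probe sets, 1 of the alternatives, could not change the members' values, since each measured member has 1 probe set. At 1 h the count of members called, 1 of 9, became 0 with a replicate block or with only those groups in the fit, and 2 with genes below the median left out (which drops Inhba and Bmp4, leaving 7 members), with arrays centred on their medians or with a trended robust fit. At 6 h the count of 3 became 5 with genes below the median left out or with only those groups in the fit. It was 2 with a replicate block or a further quantile step, and centring kept 3 but made Tgfb2 and Bmpr1a higher in place of Tgfb1 and Inhbb lower. The count of 1 between 24 h and 48 h became 0 with only those groups. Without 1 array the counts ranged from 0 to 1 at 1 h, 1 to 3 at 6 h, 2 to 4 at 24 h, 2 to 4 at 48 h, and 0 to 1 between 24 h and 48 h. The causes were not tested beyond the smaller number of arrays or genes in these fits. Over 108 pairs of arrays with equal replicate number the mean correlation of deviations from the group mean was -0.122, with 3 pairs over 0.1. For pairs of different number it was 0.0609, and 0 of 27 arrays correlated best with their own number. Values from which a replicate effect was taken out before deposit would also give a negative correlation at equal numbers. Whether the replicate numbers pair the arrays therefore cannot be read from these values, and was not tested. With centring, the percentage of called genes that were higher went from 50.6% to 76.5% at 6 h, 50.3% to 68.2% at 12 h, 49.0% to 70.4% at 24 h, 50.8% to 72.6% at 36 h, 52.5% to 65.9% at 48 h and 46.6% to 71.4% from 2 h to 6 h, and down from 48.9% to 33.7% from 24 h to 48 h. With 3 arrays a group, small changes may be missed.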

Other observations

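The pathway genes below were chosen after their values were seen. Junb, an AP-1 gene that responds to TGF-beta, fell by 0.88 ± 0.17 at 2 h (limma adjusted p = 0.00116) and rose again by 0.88 between 2 h and 48 h (3.08e-04), when its arrays overlapped the untreated ones. Bambi, which encodes a pseudoreceptor without a kinase domain, read 5.06, 4.93 and 4.83 untreated and 5.07, 5.46 and 5.49 at 48 h, a rise of 0.40 ± 0.12 (0.0126) whose call ended without untreated replicate 3 (0.34, 0.0663) or 48 h replicate 2 (0.34, 0.0688) or 3 (0.32, 0.0767). Nog, encoding the BMP antagonist noggin, read 4.44, 4.49 and 4.18 untreated and 4.70, 4.94 and 4.79 at 48 h, a rise of 0.44 ± 0.13 (0.0121) whose call ended without untreated replicate 3 (0.35, 0.0852) or 48 h replicate 2 (0.38, 0.0650). Atoh8, a transcription factor induced by BMPs, fell by 1.07 ± 0.28 at 24 h (0.00679). On its untreated arrays it read 5.68, 5.05 and 4.93, and at 24 h 3.48, 4.43 and 4.53, so replicate 1 was the highest array in the untreated group and the lowest at 24 h, and the call ended without either (-0.84, 0.0579, and -0.74, 0.0835).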
